A study of Mus musculus with 2 samples.

Results

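The pore-forming alpha1 subunits of the voltage-gated calcium channels were examined in hippocampal RNA of 2 mice. The family was taken by gene symbol as Cacna1a, Cacna1b, Cacna1c, Cacna1d, Cacna1e, Cacna1g, Cacna1h and Cacna1i, which are 8 of the 55536 annotated genes in the tables. All 8 were found, with 100 annotated transcripts between them. The tissue came from adult females of B6CASTF1/J, the F1 cross of C57BL/6J with the wild-derived strain CAST/EiJ, aged 8 to 10 months and with no stated treatment. The samples were the animals numbered 1 (replicate 1) and 5 (replicate 2), although the labels give both the same donor identifier. They form 1 group of 2, so every value below is a description and no condition was compared. The tissue label reads layer of hippocampus without naming the layer. Values do not separate the B6 from the CAST allele.

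Voltage-gated calcium channels open when the membrane depolarises and let calcium into the cell, where it drives transmitter release, dendritic excitability and gene transcription. The alpha1 subunit forms the pore, the voltage sensor and most drug-binding sites, and in the high-voltage-activated channels it works with beta and alpha2delta subunits. Cav1 subunits carry L-type currents, which in neurons signal from the membrane to the nucleus. Cav2 subunits carry the P/Q-, N- and R-type currents of presynaptic terminals and dendrites. Cav3 subunits carry T-type currents, which open close to the resting potential and shape burst firing.

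The 300 ng total RNA libraries held 34147402 and 28356913 expected counts on annotated genes, of which the 8 genes took 61395 (0.180%) and 52774 (0.186%). Of 52 markers fixed for 15 cell types or neighbouring brain regions, 45 were at 1 TPM or more in both animals, among them Prox1 of dentate granule cells (35.1 and 33.6 TPM) and Wfs1 of CA1 pyramidal cells (85.5 and 127 TPM). Of 3 Purkinje cell markers, Pcp2 was at 0 in both, but Calb1 (54.1 and 59.1 TPM) and Car8 (1.23 and 1.33 TPM) were not. Markers of other neighbouring regions also reached 1 TPM in both animals, 3 of 4 for thalamus, 3 of 4 for striatum and 2 of 3 for neocortex. The markers therefore do not exclude RNA from neighbouring regions. The libraries differed in the choroid plexus markers, whose summed level over 5 genes was 24.1 TPM in replicate 1 and 629 TPM in replicate 2. TPM, a measure of transcript abundance, corrects for transcript length and so allows levels of different genes to be compared. In bulk tissue, fewer cells that express a gene and less RNA per cell cannot be told apart.

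All 8 alpha1 genes were detected, here meaning at least 1 TPM in both animals, a level that 59.1% of annotated protein-coding genes reached. Cacna1e and Cacna1a led and Cacna1i and Cacna1d were lowest. Cacna1e, the R-type subunit (ENSMUSG00000004110.16, chromosome 1, 154390731 to 154884501, mm10), stood at 99.7 and 110 TPM, a mean of 105 ± 7.2 (SD, n = 2) from 24718 and 22462 counts. Cacna1a, the P/Q-type subunit that triggers fast transmitter release at most central synapses (ENSMUSG00000034656.17, chromosome 8, 84388440 to 84640246), stood at 96.8 and 103.1 TPM, a mean of 99.9 ± 4.4 (SD, n = 2). These ranges overlapped between the 2 genes, whose means differed by 4.89 TPM, less than the spread of Cacna1e.

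Below them came Cacna1h, a T-type subunit (ENSMUSG00000024112.16, chromosome 17, 25374285 to 25433783), at 55.7 and 59.1 TPM with a mean of 57.4 ± 2.4 (SD, n = 2). As a whole gene it stood apart from its neighbours on both sides: Cacna1a was 1.74 times as high, and Cacna1h was 1.48 times as high as Cacna1b. In the second quantification of the same libraries these ratios were 1.47 and 1.75, and both pairs stood apart. Over protein-coding transcripts only, the ratios were 1.05 and 1.01, and neither pair did. Cacna1b, the N-type subunit (ENSMUSG00000004113.18, chromosome 2, 24603887 to 24763152), was at 37.5 and 40.2 TPM. Cacna1g, a T-type subunit known for its role in thalamic bursting (ENSMUSG00000020866.17, chromosome 11, 94408391 to 94474198), was at 36.6 and 38.4 TPM. Cacna1c, the main L-type subunit of brain and heart (ENSMUSG00000051331.15, chromosome 6, 118587240 to 119196418), was at 39.5 and 33.2 TPM. Their means of 38.9 ± 1.9, 37.5 ± 1.2 and 36.3 ± 4.5 TPM (SD, n = 2) did not differ beyond their spread.

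Cacna1d, the L-type subunit that opens at more negative potentials (ENSMUSG00000015968.17, chromosome 14, 30039939 to 30491455), was at 23.0 and 24.1 TPM with a mean of 23.6 ± 0.79 (SD, n = 2). Cacna1i, the third T-type subunit (ENSMUSG00000022416.15, chromosome 15, 80287238 to 80398279), was at 22.1 and 20.2 TPM with a mean of 21.1 ± 1.3 (SD, n = 2). The gap between them, 2.43 TPM, exceeded both SDs and had one sign in both animals. The second quantification of the same libraries turned this order, with Cacna1i above Cacna1d by 1.45 TPM, again beyond both SDs. Of the 28 pairs among the 8 genes, 24 stood apart by that criterion. Rescaled without mitochondrial, 7SL and 7SK genes, every level was higher, at 175 TPM for Cacna1e and 35.4 TPM for Cacna1i. Each of the 8 exceeded the median of detected protein-coding genes, 17.6 TPM, and Cacna1e exceeded 92.7% of them.

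By channel family, Cav2 subunits held 57.0% and 59.1% of the summed alpha1 TPM (58.0 ± 1.5, SD, n = 2). Cav3 held 27.8% and 27.5% (27.7 ± 0.25), and Cav1 held 15.2% and 13.4% (14.3 ± 1.3). The order Cav2, Cav3, Cav1 was the same in both animals. Expected counts, which are not divided by length, gave Cav2 63.6% and Cav3 21.5%. The alpha1 genes known from other tissues had few counts: Cacna1s of skeletal muscle had 12 and 9 counts (0.23 and 0.25 TPM) and Cacna1f of the retina 2 and 0 counts (0.01 and 0 TPM). The related sodium leak channel gene Nalcn was at 33.8 and 33.6 TPM.

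**Figure D1:**
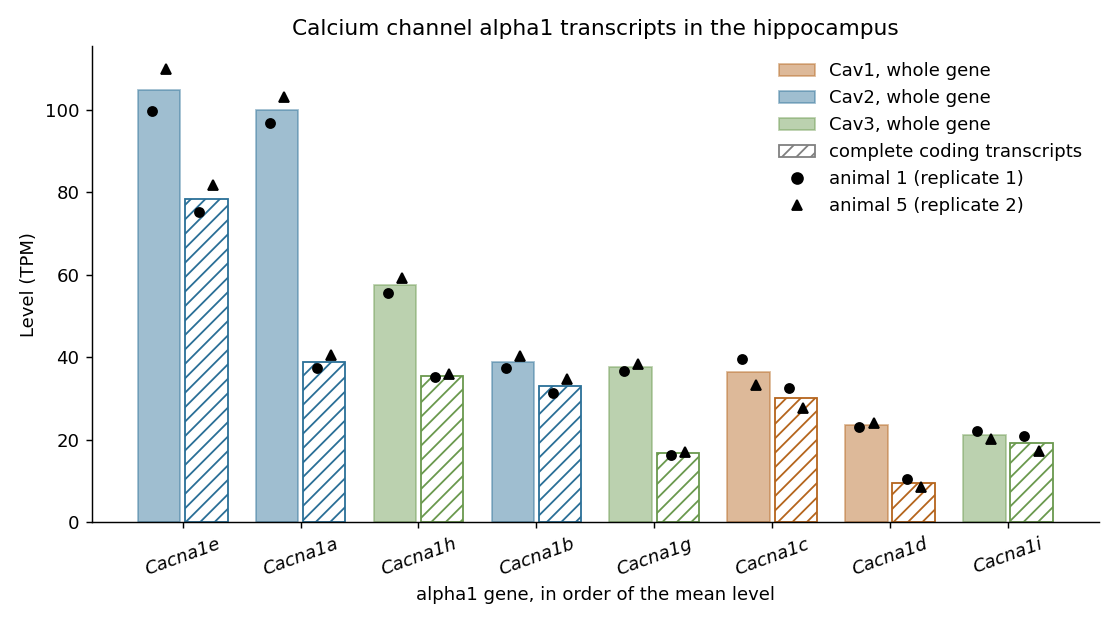
Level in TPM of each alpha1 gene, as the whole gene (filled bars) and as its complete coding transcripts only (hatched bars); bars are means of 2 animals, and the circle and triangle are animals 1 and 5. Cacna1a and Cacna1e were close as whole genes (99.9 and 105 TPM) and apart as complete coding transcripts (38.9 and 78.4 TPM).

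A gene level sums all annotated transcripts, and the members differed in how much of it could encode a full channel. Complete coding transcripts, those annotated as protein-coding with both ends of the coding sequence found, held 90.1 ± 6.2% of the TPM of Cacna1i, 84.9 ± 1.7% of Cacna1b and 83.3 ± 0.81% of Cacna1c (SD, n = 2). They held only 38.9 ± 0.48% of Cacna1a, 40.4 ± 7.4% of Cacna1d and 44.4 ± 0.27% of Cacna1g. In the second quantification the highest mean was that of Cacna1b, at 86.1%, with Cacna1c at 81.1% and Cacna1i at 77.4 ± 12%. Cacna1a, Cacna1d and Cacna1g were again lowest there, at 36.4%, 48.7% and 35.4%. Measured in expected counts, the same class held 82.1% of Cacna1a and 90.8% of Cacna1g, but 60.4% and 46.5% of Cacna1d in the 2 animals. This class was chosen after the data were seen.

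In Cacna1a the full-length Cacna1a-201 (7926 bases, 47 exons) was at 37.3 and 40.4 TPM. The fragment Cacna1a-210 (549 bases, annotated as a noncoding processed transcript) was at 24.6 and 21.1 TPM from 233 and 167 counts. A retained-intron transcript, Cacna1a-206, was at 13.0 and 15.6 TPM. In Cacna1g 5 processed transcripts held 55.6 ± 0.27% of the TPM and 9.24% of the counts, led by Cacna1g-212 at 7.90 and 6.13 TPM, Cacna1g-214 at 6.81 and 6.14 TPM and Cacna1g-213 at 3.16 and 4.73 TPM. Retained-intron transcripts held 39.0 ± 3.6% of Cacna1d, 30.4 ± 2.9% of Cacna1a, 29.2 ± 1.6% of Cacna1h and 23.9 ± 0.49% of Cacna1e. The leading one was Cacna1e-206 in Cacna1e, at 13.3 and 14.9 TPM, Cacna1h-204 in Cacna1h, at 7.51 and 9.2 TPM, and Cacna1d-203 in Cacna1d, at 3.46 and 4.54 TPM. In total RNA, unspliced RNA and annotated retained introns were not told apart.

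Counted as complete coding transcripts, Cacna1e was at 75.1 and 81.8 TPM and Cacna1a at 37.3 and 40.4 TPM, a ratio of means of 2.02 against 1.05 for the whole genes. Cacna1h followed at 35.1 and 35.9 TPM, Cacna1b at 31.4 and 34.6, and Cacna1c at 32.7 and 27.8. Cacna1i, lowest as a whole gene, moved above Cacna1g and Cacna1d, with 20.9 and 17.3 TPM against 16.2 and 17.1 TPM for Cacna1g and 10.5 and 8.50 TPM for Cacna1d. Only the pair of Cacna1i and Cacna1d was apart in both orders. On this scale Cav2 held 57.5%, Cav3 27.3% and Cav1 15.2%, close to the shares by whole gene.

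**Figure D2:**
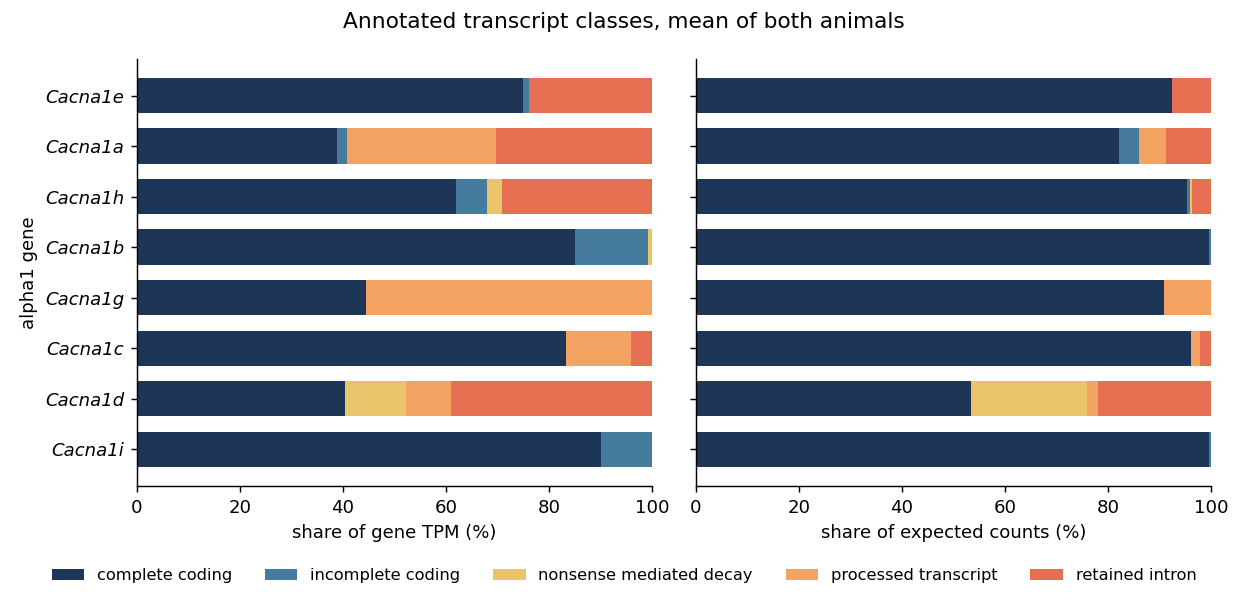
Share of each gene held by 5 annotated transcript classes, by TPM (left) and by expected counts (right), each in percent and as the mean of 2 animals. Classes other than complete coding hold most of the TPM of Cacna1a, Cacna1d and Cacna1g, yet complete coding transcripts hold 82.1% of the counts of Cacna1a and 90.8% of those of Cacna1g.

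The annotation of the 8 genes holds 31 choices between coding exons, counted as skipped exons or mutually exclusive pairs. In 16 of them both forms held at least 5% of the TPM in either quantification. The 3 Cav2 genes share a pair of alternative 97-base exons, of which a transcript carries either the upstream or the downstream copy. They code for part of the C-terminal tail next to the pore, the region through which calmodulin acts on these channels. The sequences are shown because the copy carried by the leading transcript is not the same in all 3 genes. They are printed 5′ to 3′ from the GENCODE M21 transcripts with mm10 positions, and capitals mark the bases that differ between the copies of one gene.
Cacna1a upstream exon, chr8:84614695-84614791, plus strand: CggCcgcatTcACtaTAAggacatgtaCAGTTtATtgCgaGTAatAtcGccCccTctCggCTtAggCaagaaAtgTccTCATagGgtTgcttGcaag
Cacna1b upstream exon, chr2:24626823-24626919, minus strand: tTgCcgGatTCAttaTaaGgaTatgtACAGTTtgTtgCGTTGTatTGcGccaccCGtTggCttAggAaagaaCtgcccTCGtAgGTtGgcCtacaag
Cacna1e upstream exon, chr1:154417950-154418046, minus strand: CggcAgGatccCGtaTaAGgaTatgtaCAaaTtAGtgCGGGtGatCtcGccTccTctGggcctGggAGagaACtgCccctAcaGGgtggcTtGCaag
Cacna1a downstream exon, chr8:84615574-84615670, plus strand: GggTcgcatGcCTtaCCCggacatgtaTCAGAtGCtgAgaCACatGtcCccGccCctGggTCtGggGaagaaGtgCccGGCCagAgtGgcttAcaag
Cacna1b downstream exon, chr2:24625238-24625334, minus strand: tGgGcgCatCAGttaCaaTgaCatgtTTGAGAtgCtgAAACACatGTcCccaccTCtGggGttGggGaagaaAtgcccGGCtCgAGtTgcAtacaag
Cacna1e downstream exon, chr1:154416061-154416157, minus strand: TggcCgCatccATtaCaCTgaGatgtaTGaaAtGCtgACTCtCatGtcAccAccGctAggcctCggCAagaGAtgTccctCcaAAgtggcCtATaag

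The copies of one gene were 58.8% to 62.9% identical, while copies in the same position were more alike across genes, at 69.1% to 75.3% for the upstream and 72.2% to 79.4% for the downstream copies. An upstream copy against a downstream copy of another gene gave 58.8% to 64.9%. These are identities over 97 aligned bases without gaps, and the search that found the Cacna1a pair was widened to noncoding transcripts after the data were seen.

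Cacna1a and its relatives differed in the copy annotated as full length. In Cacna1a the upstream copy is exon 37 of Cacna1a-201, and all 3 annotated transcripts with it together reached 39.1 and 42.6 TPM. The downstream copy occurs only in the fragment Cacna1a-210, which was at 24.6 and 21.1 TPM, so that this copy held 38.6% and 33.1% of the TPM of transcripts with either (35.8 ± 3.9%, SD, n = 2). The second quantification of the same libraries gave it 41.6% and 36.9%. The antisense gene Gm16183 overlaps these exons and was listed at 0 TPM in both animals; the sources used here do not say whether counting used strand, without which reads of the overlapping genes cannot be told apart.

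In Cacna1b and Cacna1e the leading transcripts carried the downstream copy. Transcripts with it were at 31.4 and 34.6 TPM in Cacna1b and at 75.1 and 81.8 TPM in Cacna1e. The upstream copy occurs only in annotated fragments, Cacna1b-210 (332 bases) and Cacna1e-208 (331 bases). It was at 0 and 0.260 TPM in Cacna1b, a share of 0% and 0.75%, and at 0.460 and 2.21 TPM in Cacna1e, a share of 0.61% and 2.63%. The second quantification gave 15.6% and 8.98% for Cacna1b and 6.09% and 4.99% for Cacna1e. The Cacna1b upstream copy is known from pain-sensing neurons, and its share here depended on the quantification.

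**Figure D3:**
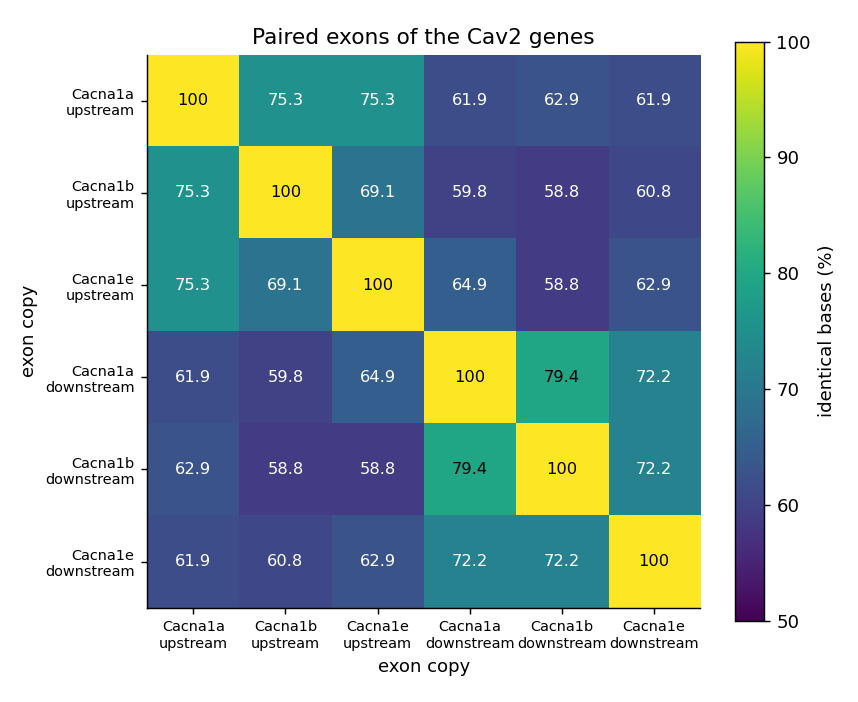
Percent of identical bases between the 6 copies of the paired 97-base exon in the Cav2 genes, with genes and positions on both axes. Copies in the same position, in the upper left and lower right blocks, are at 69.1% to 79.4%, and all other pairs of copies at 58.8% to 64.9%.

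Cacna1b also has microexons in the linkers of its voltage sensors. They are shown with 12 bases of the flanking exons on each side, in the leading transcript that holds each, and capitals mark the microexon.
Cacna1b 6-base exon, chr2:24642853-24642858, minus strand: acagagatagcgGAAACGaacaacttcatc
Cacna1b 12-base exon, chr2:24656711-24656722, minus strand: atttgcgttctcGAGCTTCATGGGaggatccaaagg

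The 6-base exon was included in 62.9% and 59.6% of the TPM of complete transcripts (61.2 ± 2.3%, SD, n = 2), and the 12-base exon in 37.1% and 40.4% (38.8 ± 2.3%). No annotated complete transcript holds both, so these shares are complementary by annotation and count as 1 measurement. Cacna1b-204, with the 6-base exon, was at 12.3 and 13.9 TPM, and Cacna1b-205, with the 12-base exon, at 10.3 and 13.2 TPM. The second quantification put the 6-base exon at 52.29% and 51.02%, and Cacna1b-205 ahead of Cacna1b-204. A 108-base exon was included in 76.2% and 80.7% of the TPM, and only Cacna1b-202 lacks it (7.49 and 6.69 TPM). A 63-base exon found only in the 308-base fragment Cacna1b-206 had 20.3% and 14.2% in the first quantification and 0% in the second.

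Most of Cacna1e lay in 1 transcript. The leading transcript Cacna1e-203 (14921 bases) was at 71.5 and 77.8 TPM, which is 71.7% and 70.7% of the gene. A 129-base exon in the C-terminal tail occurs only in Cacna1e-207, which also begins at its own more distal first exon and was at 3.54 and 4.03 TPM. Inclusion was 4.72% and 4.93% in the first quantification and 20.04% and 17.68% in the second, so it was the minor form in both.

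The L-type genes Cacna1c and Cacna1d carry a pair of alternative 104-base exons that code for the pore-lining end of the first repeat. The 4 copies are shown because the leading transcripts of the 2 genes carry different ones, and capitals again mark differences within a gene.
Cacna1c upstream exon, chr6:118742265-118742368, minus strand: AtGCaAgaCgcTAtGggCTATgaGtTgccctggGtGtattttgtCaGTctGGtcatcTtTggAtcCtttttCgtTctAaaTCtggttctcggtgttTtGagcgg
Cacna1d upstream exon, chr14:30171956-30172059, minus strand: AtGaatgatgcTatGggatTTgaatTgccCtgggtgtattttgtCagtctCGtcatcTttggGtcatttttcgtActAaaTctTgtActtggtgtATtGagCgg
Cacna1c downstream exon, chr6:118741871-118741974, minus strand: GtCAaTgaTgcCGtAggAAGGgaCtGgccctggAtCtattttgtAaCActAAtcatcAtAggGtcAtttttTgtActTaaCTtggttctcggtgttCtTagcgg
Cacna1d downstream exon, chr14:30171296-30171399, minus strand: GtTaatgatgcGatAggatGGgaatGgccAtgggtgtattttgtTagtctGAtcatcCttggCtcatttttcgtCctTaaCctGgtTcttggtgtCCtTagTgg

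The upstream copies of the 2 genes were 86.5% identical and the downstream copies 79.8%, against 69.2% between the copies of Cacna1c and 78.8% between those of Cacna1d. In Cacna1c the upstream copy led, with transcripts at 20.01 and 16.74 TPM against 12.6 and 11.1 TPM for the downstream copy. That is 61.3% and 60.2% upstream (60.8 ± 0.76%, SD, n = 2), and the second quantification gave 62.8% and 59.3%. In Cacna1d the downstream copy led, with transcripts at 9.99 and 8.50 TPM, and the upstream copy held 23.4% and 26.3% over transcripts of all biotypes (24.9 ± 2.0%), and 26.4% and 34.1% in the second quantification. Over protein-coding transcripts alone, the basis of the Cacna1c shares, it held 4.86% and 0%. Most of the Cacna1d upstream copy lay in Cacna1d-208, annotated as a target of nonsense-mediated decay, at 2.55 and 3.03 TPM.

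A pair of 84-base exons, in the voltage sensor of the fourth repeat, is also present in both genes, and is shown because Cacna1c used its copies about equally.
Cacna1c upstream exon, chr6:118638427-118638510, minus strand: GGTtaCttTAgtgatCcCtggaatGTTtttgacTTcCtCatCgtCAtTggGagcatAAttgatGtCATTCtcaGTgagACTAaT
Cacna1d upstream exon, chr14:30089822-30089905, minus strand: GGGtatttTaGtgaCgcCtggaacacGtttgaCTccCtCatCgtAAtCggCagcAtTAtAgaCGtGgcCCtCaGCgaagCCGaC
Cacna1c downstream exon, chr6:118637730-118637813, minus strand: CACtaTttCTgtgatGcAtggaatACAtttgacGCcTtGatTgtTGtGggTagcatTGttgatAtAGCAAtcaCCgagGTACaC
Cacna1d downstream exon, chr14:30089296-30089379, minus strand: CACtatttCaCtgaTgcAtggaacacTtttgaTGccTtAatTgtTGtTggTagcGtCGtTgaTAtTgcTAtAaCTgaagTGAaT

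Cacna1c transcripts with the upstream copy were at 16.9 and 13.7 TPM and those with the downstream copy at 15.57 and 13.97 TPM. The upstream share was 52.1% and 49.5% (50.8 ± 1.8%, SD, n = 2), so the higher copy was not the same in both animals. In Cacna1d the downstream copy occurs only in Cacna1d-208 and held 19.5% and 26.3% over all biotypes, and 24.9% and 33.0% in the second quantification. Across the genes the downstream copies were 79.8% identical and the upstream copies 70.2%, while the copies of one gene were 58.3% identical in Cacna1c and 60.7% in Cacna1d.

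Another pair and a single exon of Cacna1c had a clear minor form. Of a 60-base pair in the third repeat the upstream copy held 37.5% and 39.3% (38.4 ± 1.3%, SD, n = 2). A 75-base exon in the linker between the first and the second repeat, near the site where beta subunits bind, was included in 38.7% and 39.8% (39.2 ± 0.76%). In the second quantification the means were 37.5% and 38.6%. The TPM of the 75-base exon in both animals equalled that of the downstream 104-base copy. Cacna1c-216 leads both and also the upstream 60-base copy, so these choices are not independent measurements.

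**Figure D4:**
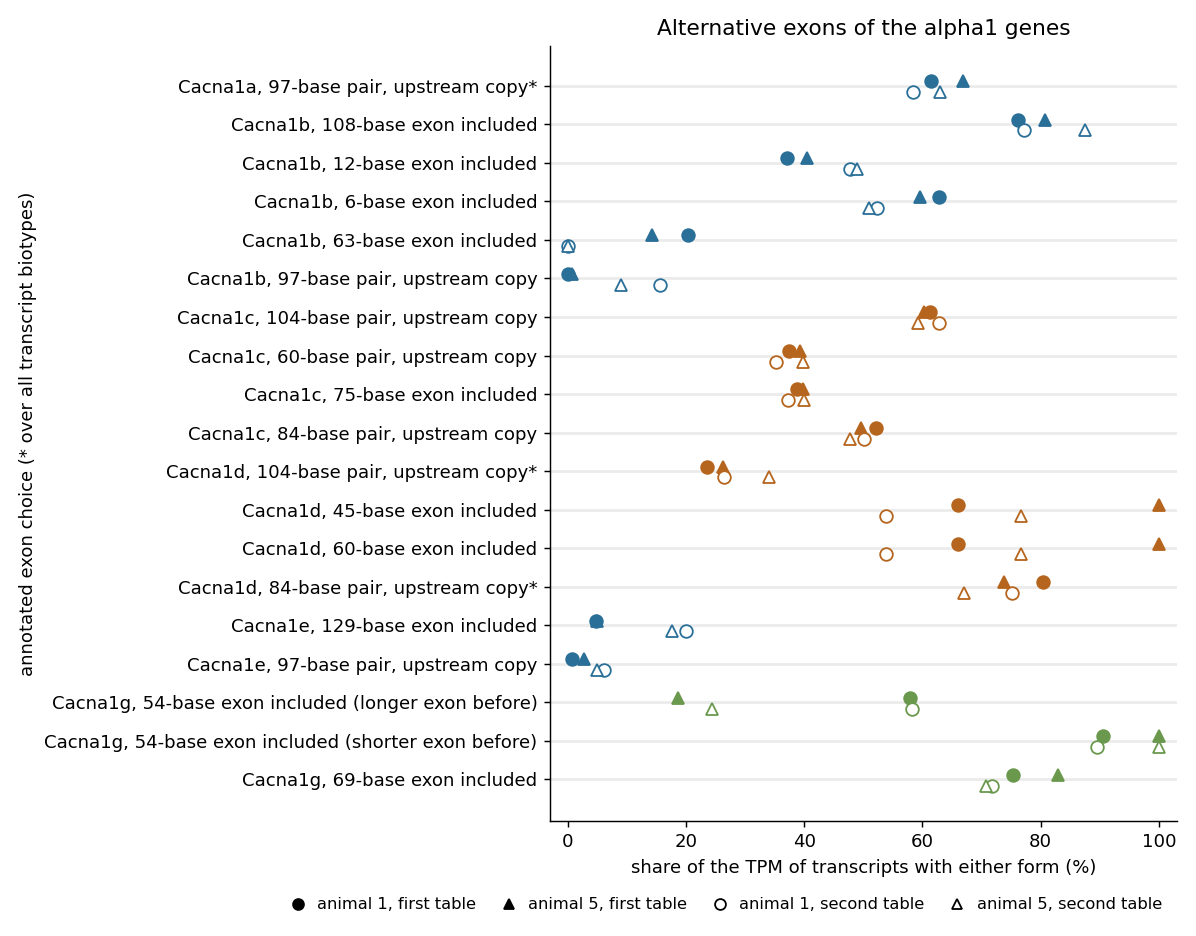
Share of TPM held by the named exon form among transcripts with either form, in percent, for each animal and each of 2 quantifications (filled and open symbols). Cacna1c choices differ little between animals and quantifications, whereas over complete coding transcripts the Cacna1d 45-base and 60-base exons range from 53.8% to 100%. The Cacna1g 54-base exon after the longer form of the exon before it ranges from 18.6% to 58.3%.

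Cacna1c transcripts divided between 2 annotated starts. Cacna1c-207 and 3 others begin at the distal start (outermost base 119196418) and were at 16.9 and 13.7 TPM. All of this TPM came from Cacna1c-207, as did that of the upstream 84-base copy. The distal share and the share of that copy are therefore not independent measurements. Cacna1c-216 and 11 others begin at the proximal start (outermost base 119108573) and were at 15.4 and 13.7 TPM. The distal share was 51.9% and 49.3% of the complete coding TPM (50.6 ± 1.8%, SD, n = 2) and the proximal share 47.1% and 49.2% (48.2 ± 1.5%), and the second quantification gave means of 48.45% and 49.99%, so neither start led in both. These starts are known to give channels with different N-terminal ends.

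The sequences before the starts are shown because they differ in composition. They are RefSeq sequence of GRCm38.p6, 5′ to 3′ on the strand of the gene, and run up to the base before the outermost annotated start. The outermost distal base belongs to Cacna1c-212, at 0 TPM in both animals, and Cacna1c-207 is annotated to start at 119196231, which neither the printed distal stretch nor its window reaches. The outermost proximal base is the start of Cacna1c-216. Capitals mark each CG.
Before the distal Cacna1c start, chr6:119196419-119196659, minus strand: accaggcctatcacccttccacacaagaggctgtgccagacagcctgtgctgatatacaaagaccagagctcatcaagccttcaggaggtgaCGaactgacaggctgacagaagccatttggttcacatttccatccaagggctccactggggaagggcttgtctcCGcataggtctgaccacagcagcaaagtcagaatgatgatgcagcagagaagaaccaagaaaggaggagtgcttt
Before the proximal Cacna1c start, chr6:119108574-119108745, minus strand: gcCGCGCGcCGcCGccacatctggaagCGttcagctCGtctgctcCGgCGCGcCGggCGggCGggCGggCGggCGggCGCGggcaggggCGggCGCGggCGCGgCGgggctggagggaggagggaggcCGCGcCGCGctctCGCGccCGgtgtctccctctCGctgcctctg

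The distal stretch of 241 bases holds 2 CG, and the proximal stretch of 172 bases holds 32 and is 83.1% G or C. In the 300-base RefSeq windows that contain them, the distal one has 3 CG and the proximal one 57, where the median of 32851 windows of this length is 7. The proximal window has more CG than 99.8% of all windows and the distal one more than 23.3%. The letters GGGCGG, searched on both strands and counted without overlap, occur 4 times in the proximal window and not in the distal one. Overlapping occurrences in the printed proximal stretch would add to that count. Of all windows 35.7% hold these letters. TATAAA on either strand is in neither the distal nor the proximal window, and in 13.6% of all windows. The distal start lies inside the span of Dcp1b on the opposite strand (9.05 and 10.7 TPM), which shares no exon base with Cacna1c.

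The transcript shares of Cacna1d varied between the animals and the quantifications. Among complete coding transcripts, only Cacna1d-207 holds the 45-base exon of the fourth repeat. It is also the only one of them with the 60-base exon of the linker between the first and the second repeat. Cacna1d-207 was at 6.93 and 8.50 TPM. Its share among complete transcripts was 66.0% in replicate 1 and 100% in replicate 2, and 53.8% and 76.6% in the second quantification. Cacna1d-202, with a more distal start, was at 1.72 and 0 TPM from 311 and 0 counts, for which the deposited posterior SD was 111 and 32.8 counts. The second quantification put Cacna1d-202 at 3.94 and 1.67 TPM. Its start held 16.4% and 0% of the complete coding TPM in the first quantification and 44.1% and 21.8% in the second. At this depth of 2518 and 2079 counts for the whole gene, the transcript shares of Cacna1d differed between animals by more than those of Cacna1c. Chdh, on the opposite strand, shares 589 exon bases with Cacna1d and was at 1.65 and 1.32 TPM.

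Among the T-type genes, the search of the annotation found 3 exon choices in Cacna1g and none in Cacna1h or Cacna1i. It counted skipped exons and mutually exclusive pairs, so the splice-site difference of Cacna1h-201 given below was not counted. A 69-base exon between the second and the third repeat was included in 75.4% and 83.0% of Cacna1g (79.2 ± 5.4%, SD, n = 2). A 54-base exon between the third and the fourth repeat follows an exon with a longer and a shorter form. After the shorter form it was included in 90.5% and 100%. After the longer form it was included in 57.8% in replicate 1 and 18.6% in replicate 2, where Cacna1g-211, which skips it, was at 1.14 and 6.72 TPM. The counts of Cacna1g-211 were 191 and 943, with deposited posterior SDs of 142 and 194. The second quantification gave a like contrast for that choice, 58.3% and 24.4%. In the first quantification the leading Cacna1g transcript was Cacna1g-203 in replicate 1 and Cacna1g-211 in replicate 2. In the second quantification processed transcripts led, Cacna1g-212 at 7.47 TPM in replicate 1 and Cacna1g-215 at 7.27 TPM in replicate 2.

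Cacna1h was led by Cacna1h-205 (8230 bases) at 35.1 and 35.9 TPM, which is 63.1% and 60.8% of the gene. The second quantification split that share with Cacna1h-201, which differs by splice sites 4 bases apart, at 23.99% and 19.27% for Cacna1h-205 and 25.6% and 33.0% for Cacna1h-201. Cacna1i had Cacna1i-202, at 20.9 and 17.3 TPM, as its only complete coding transcript. Its share of the gene was 94.5% and 85.7%, with the remainder in the 394-base fragment Cacna1i-203 at 1.22 and 2.88 TPM from 7.55 and 14.9 counts.

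Between the animals the alpha1 genes differed little. Counts were scaled by TMM, and a ratio of replicate 2 to replicate 1 carries an exact 95% interval for counting error only. None of the 8 differed at least 2-fold, where 1.10% of 14434 genes tested did (0.589% higher and 0.513% lower in replicate 2). None reached 1.5-fold, where 5.22% of the genes did. Cacna1c was lower in replicate 2, at 7370 and 5158 counts with a log2 ratio of -0.26 (interval -0.31 to -0.20). Cacna1i was lower by a like amount, at 4267 and 2969 counts with a log2 ratio of -0.26 (-0.33 to -0.20). Cacna1a, Cacna1b and Cacna1e were higher, with log2 ratios of 0.12, 0.13 and 0.12. The intervals of these 5 excluded a ratio of 1, as did those of 44.3% of all genes tested (18.7% higher and 25.6% lower), and those of Cacna1d (-0.02), Cacna1g (0.05) and Cacna1h (0.05) did not. The median size of the log2 ratio was 0.12 for the 8 genes and 0.14 for all genes tested.

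With the spike-in RNA as the scale, the median log2 ratio of all genes moved from -0.02 to -0.26, and Cacna1a, Cacna1b, Cacna1e, Cacna1g and Cacna1h turned to negative values. Choroid plexus markers also differed, with all 4 that reached the count minimum at least 2-fold higher in replicate 2 (Ttr 21.8 and 615 TPM), and Folr1 below that minimum at 0.5 and 3.76 TPM, as did Fos (8.49 and 1.78 TPM) and Arc (67.7 and 15.8 TPM), lower in replicate 2. Their part in the ratios of the alpha1 genes was not tested.

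**Figure D5:**
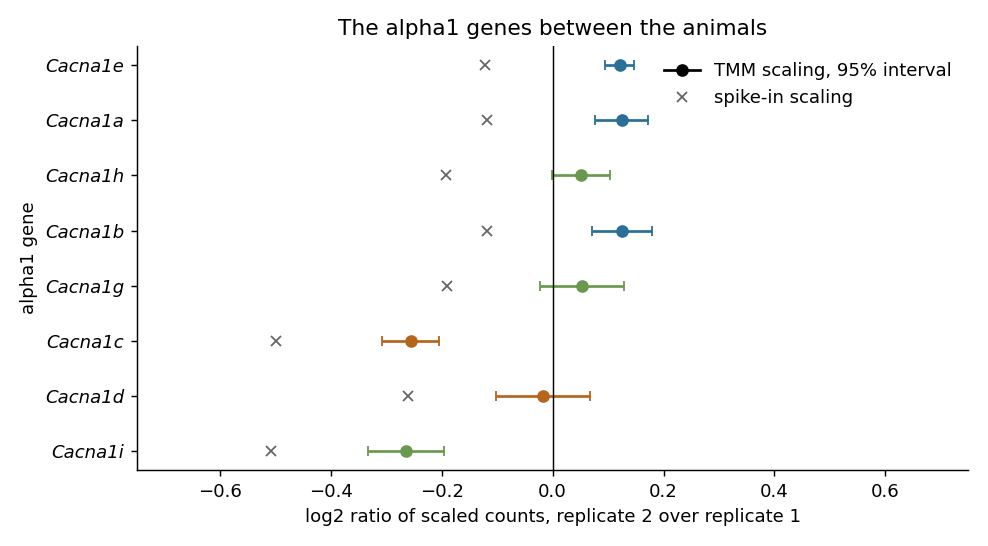
Log2 ratio of scaled counts, replicate 2 over replicate 1, for the 8 alpha1 genes, with TMM scaling and its exact 95% interval (circles) and with spike-in scaling (crosses). Cacna1c and Cacna1i sit at -0.26, the 3 Cav2 genes at 0.12 to 0.13, and spike-in scaling moves every gene to the left.

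The partners of the alpha1 subunits were given from 12 lists of 84 genes, of which 75 were at 1 TPM or more in both animals. Of all annotated protein-coding genes 59.1% were. All 4 beta subunit genes, which bring the channel to the membrane, were detected, from Cacnb3 at 93.5 and 89.9 TPM to Cacnb4 at 38.7 and 47.6 TPM. Of the 4 alpha2delta genes, which raise channel number at the membrane, 3 were detected, led by Cacna2d1 at 73.2 and 82.8 TPM, and Cacna2d4 was at 0.45 and 0.69 TPM. Of the 8 genes of the gamma family, which includes the AMPA receptor regulators, 6 were detected, led by Cacng8 at 160 and 180 TPM, and the lowest of the undetected was Cacng1 at 0.0800 and 0 TPM. Summed levels were 248 ± 6.6 TPM for beta, 140.0 ± 7.5 TPM for alpha2delta and 420 ± 12 TPM (SD, n = 2) for the 8 alpha1 genes, so pore and auxiliary transcripts were within the same order of size.

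All 12 active zone genes that tether or sense Cav2 channels were detected, from the fusion protein Snap25 at 1041 and 1087 TPM to Rims3 at 19.8 and 18.7 TPM. All 6 calmodulin and calcium-binding regulators were detected, from Calm2 at 1042 and 1077 TPM to Cabp1 at 57.1 and 49.9 TPM. Of the 7 RGK and STAC regulators, which restrain or support channels, 4 were detected, led by Stac2 at 27.3 and 39.3 TPM. The lowest of the undetected was Rem1 at 0.53 and 0.4 TPM. All 8 anchors and kinases that act near L-type channels were detected, from Camk2a at 1486 and 1633 TPM to Akap7 at 24.01 and 30.97 TPM. These lists had no member that differed at least 2-fold between the animals.

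All 4 calcium-activated potassium channel genes were detected, with Kcnma1 highest at 71.0 and 75.3 TPM and Kcnn1 lowest at 9.70 and 7.68 TPM. All 14 genes of intracellular calcium release and removal were detected, from the plasma membrane pump Atp2b1 at 458 and 519 TPM to the receptor Itpr3 at 1.44 and 1.62 TPM. All 7 splicing regulators known to act on calcium channel exons were detected, from Rbfox1 at 170 and 163 TPM to Nova1 at 15.3 and 17.4 TPM. Of the 7 genes of calcium-regulated transcription 6 were detected, led by the coactivator Crtc1 at 95.8 and 89.4 TPM, and Nfatc4, at 0.9 and 0.87 TPM, was not. Fos and Arc, both from that list, were the only 2 of the 74 partner genes tested that met the 2-fold criterion. Of all 14434 genes tested 1.10% met it, so few calls are due in lists of this size. The counts therefore do not set the partners apart from other genes.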

How the data were processed

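Total RNA of hippocampus from 2 mice was sequenced after spike-in RNA was added. Per the submitters' processing notes and the notes deposited with the files, the tables use mm10 and GENCODE M21; the sources used here name no aligner, tool version or strand setting. The authors deposited, per gene and per transcript, expected counts (estimated, with a signal column for the posterior SD), TPM, FPKM and the percent of the gene held by each transcript, and a second transcript table with estimated counts and TPM. The first layout is that of RSEM and the second that of kallisto, per the file headers.

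Levels are the deposited TPM. Ratios between animals used rounded expected counts of all annotated genes with TMM sizes from edgeR 4.0.16, a prior count of 2 and exact Clopper-Pearson 95% intervals, which cover counting error only. DESeq2 1.42.0 size factors, total counts and spike-in were alternatives. A 2-fold difference also needed an interval that excludes 1 and 50 counts in the mean. No p-value was computed: 1 group of 2 animals allows none. Exon forms were read from the annotation with python 3.11.15 and reported where both held at least 5% of the TPM in either quantification. The ratio and exon searches were tested on simulated data. Named are all 8 members, the highest, lowest and 2-fold different gene of each partner list, and transcripts that lead or hold at least 10% of a gene; exceptions are transcripts and marker genes that a statement rests on. RefSeq promoter windows matched 5 of 8 members. Members and lists were chosen with earlier results of these data known. Entries that name no mouse gene, mostly spike-ins, held 0.178% and 0.212% of counts and were left out of the tests.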

Additional observations from a re-analysis of the deposited data

How the results depend on the processing

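All 8 genes were detected at 5 TPM, with protein-coding transcripts only and in the second quantification. None differed 2-fold in the second quantification or with 3 other scalings, and none met a 1.5-fold criterion. Detection at 0.5 TPM or in either animal alone follows from at least 1 TPM in both animals, so these settings are not further checks. Leaving out the count minimum could change no call, because every member was above it, with Cacna1d lowest at 2518 and 2079 counts. Spike-in scaling gave log2 ratios of -0.12 for Cacna1a, -0.12 for Cacna1b and -0.12 for Cacna1e, opposite in sign to the TMM values. The Cav2 share, 58.0%, was 63.6% in expected counts without length and 53.7% with Cacna1f, Cacna1s and Nalcn added. The Cav3 share, 27.7%, was 30.3% in the second quantification, 21.5% in expected counts, 25.6% with the 3 added genes, 27.3% over complete coding transcripts and 25.9% over those in the second quantification. The order Cav2, Cav3, Cav1 held under all of these. Of 28 pairs of genes, 23 to 27 stood apart on each of 4 other scales. Each of these scales turned 2 or 3 pairs, 1 or 2 of them apart in both orders, with Cacna1i above Cacna1d on each of the 4. FPKM rescaled per library is proportional to TPM, so its unchanged order is not a further check. The second quantification moved 9 of 16 exon shares and 6 of 8 gene levels by more than the SD between animals, and leaving out mitochondrial, 7SL and 7SK genes raised all 8 levels, from 105 to 175 TPM for Cacna1e and from 21.1 to 35.4 TPM for Cacna1i. Analyses of complete coding transcripts, starts and equal-length exon pairs were chosen after seeing the data. With 2 animals, an SD is itself loosely known. No paired analysis was possible because there is 1 group.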
